A study of Mus musculus with 35 samples.

Results

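The genes described here are 38 mouse genes that act when cells copy their DNA in S phase. They were chosen by name, as the rows of a count table of 53465 genes whose symbol is on a fixed list, and each of the 38 symbols matched 1 row. They fall into 6 roles: 6 genes of the replicative helicase, 5 of licensing and S-phase entry, 8 of polymerases, clamp and fork enzymes, 2 of nucleotide supply and uracil removal, 9 of histone supply and chromatin, and 8 of checkpoint and repair. The rule for choosing them uses their names only, but the list was drawn up with earlier results of these data known.

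The table holds 35 RNA-seq libraries of pancreatic ductal adenocarcinoma (PDAC) cells, with 18 libraries labelled Smad4 off and 17 labelled Smad4 on. All libraries come from KC-shSmad4 tumor cells, which carry a *Ptf1a*-driven Cre, an rtTA3-mKate2 allele and a doxycycline (Dox)-inducible, GFP-linked short hairpin RNA (shRNA) against *Smad4*. The lines were derived from tumors of such mice and made to express luciferase, deletion of the *Cdkn2a/b* locus was common in them, and the labels do not say which line or shRNA a library holds. The cells grew in 6 to 8-week-old female athymic nude mice, hosts without mature T cells, that were fed Dox: in the pancreas after orthotopic injection, in the liver after injection into a spleen that was then removed, or in the lungs after tail vein injection. Libraries labelled off stand for hosts kept on Dox, and libraries labelled on for hosts taken off Dox 4 weeks (pancreas), 5 weeks (liver) or 6 weeks (lungs) after injection. Tumor cells were sorted by their mKate2 signal 7 or 14 days later. On day 7 there were 3 pancreas libraries labelled off and 2 labelled on, 2 and 3 liver libraries, and 4 and 2 lung libraries, and on day 14 these numbers were 2 and 3, 3 and 3, and 4 and 4. Replicates are numbered mice.

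In G1, the origin recognition complex, CDC6 and CDT1 load the MCM2-7 helicase onto replication origins. CDC45 and the GINS complex then turn it into an active helicase, and polymerases, the sliding clamp PCNA and histone chaperones follow the fork. Most of these genes are transcribed together at the G1/S transition under E2F transcription factors, of which E2F7 and E2F8 are repressors, so their summed mRNA is often read as a measure of how many cells are in or near S phase. In bulk RNA, fewer cells in S phase and less of each mRNA per cell cannot be told apart.

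Because these genes are textbook E2F targets, their promoters were searched for E2F letters. RefSeq promoter windows on GRCm38.p6, from 250 bases before to 50 bases after a gene start, were at hand for 28 of the 38 genes (31 windows). One of the 8-letter E2F strings TTTCCCGC, TTTGGCGC, TTTCGCGC or TTTGCCGC, on either strand, was found in 12 of the 31 windows (38.7%), against 744 of all 32851 windows of the same length that were searched (2.26%). Here and for the strings that follow, the windows searched leave out 1 chromosome, on which no member lies. The shorter CCAAT was found in 64.5% of the members' windows against 37.4% of all, the GC box GGGCGG in 64.5% against 35.7%, and TTTGAA, the letters of the cell cycle homology region, in 19.4% against 17.9%. A match describes letters only and is not a measured binding site. Below are the 250 bases before the RefSeq start of the 8 genes with a window among the 10 members that passed an adjusted P of 0.05 in a comparison of labels, 5′ to 3′ on the gene's own strand. Capitals mark E2F matches in *Mcm5*, *Mcm6* and *Uhrf1*. The other 5 have none of the 4 strings, and in 4 of them capitals mark CCAAT on either strand, while *Tyms* has neither and no capitals.
Mcm5 (chr8:75109259-75109508, plus strand): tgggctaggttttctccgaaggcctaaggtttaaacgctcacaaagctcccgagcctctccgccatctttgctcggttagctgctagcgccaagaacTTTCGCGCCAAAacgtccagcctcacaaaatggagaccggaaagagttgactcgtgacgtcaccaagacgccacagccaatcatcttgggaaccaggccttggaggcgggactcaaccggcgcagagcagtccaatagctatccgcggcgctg
Mcm6 (chr1:128359706-128359955, minus strand): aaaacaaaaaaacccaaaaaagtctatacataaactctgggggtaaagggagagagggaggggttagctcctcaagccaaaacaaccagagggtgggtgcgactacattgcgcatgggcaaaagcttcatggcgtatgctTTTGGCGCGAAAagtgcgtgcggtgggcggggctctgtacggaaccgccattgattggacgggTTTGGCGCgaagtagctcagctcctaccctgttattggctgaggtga
Uhrf1 (chr17:56304063-56304312, plus strand): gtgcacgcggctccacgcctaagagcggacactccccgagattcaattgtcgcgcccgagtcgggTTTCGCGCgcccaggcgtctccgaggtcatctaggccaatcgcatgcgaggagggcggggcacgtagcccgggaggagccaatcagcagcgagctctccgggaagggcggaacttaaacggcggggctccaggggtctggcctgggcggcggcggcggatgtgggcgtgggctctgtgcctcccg
Cdc45 (chr16:18811973-18812222, minus strand): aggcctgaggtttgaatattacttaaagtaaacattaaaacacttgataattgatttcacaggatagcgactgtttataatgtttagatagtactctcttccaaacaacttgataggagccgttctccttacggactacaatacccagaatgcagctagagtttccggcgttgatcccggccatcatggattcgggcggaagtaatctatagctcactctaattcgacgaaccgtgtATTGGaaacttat
E2f8 (chr7:48881597-48881846, minus strand): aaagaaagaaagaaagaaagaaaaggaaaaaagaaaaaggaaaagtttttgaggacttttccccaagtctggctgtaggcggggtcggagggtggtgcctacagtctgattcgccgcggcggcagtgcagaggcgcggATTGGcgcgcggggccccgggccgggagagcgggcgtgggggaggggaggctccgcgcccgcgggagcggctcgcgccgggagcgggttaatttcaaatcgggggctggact
Mcm2 (chr6:88898781-88899030, minus strand): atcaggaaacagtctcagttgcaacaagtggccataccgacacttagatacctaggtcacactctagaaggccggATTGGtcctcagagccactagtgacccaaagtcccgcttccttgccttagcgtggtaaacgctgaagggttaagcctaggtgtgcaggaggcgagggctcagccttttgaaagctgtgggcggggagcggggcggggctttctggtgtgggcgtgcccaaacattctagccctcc
Prim1 (chr10:128014965-128015214, plus strand): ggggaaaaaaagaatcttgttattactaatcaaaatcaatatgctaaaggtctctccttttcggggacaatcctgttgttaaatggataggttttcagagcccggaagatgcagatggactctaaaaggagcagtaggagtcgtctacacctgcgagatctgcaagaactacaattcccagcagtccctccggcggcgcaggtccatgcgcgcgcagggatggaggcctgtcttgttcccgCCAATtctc
Tyms (chr5:30073626-30073875, minus strand): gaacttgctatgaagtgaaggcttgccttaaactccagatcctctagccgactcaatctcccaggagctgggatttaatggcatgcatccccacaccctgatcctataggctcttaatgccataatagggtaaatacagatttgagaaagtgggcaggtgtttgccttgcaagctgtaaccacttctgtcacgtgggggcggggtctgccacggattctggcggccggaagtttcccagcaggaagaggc
In the *Mcm6* sequence, 2 overlapping matches begin 110 and 106 bases before the RefSeq start and another 47 bases before it. The *Mcm5* sequence has 2 overlapping matches, which begin 153 and 149 bases before the start, and that of *Uhrf1* has 1, which begins 185 bases before one of 2 annotated starts. The other *Uhrf1* window has none. RefSeq starts differ from those of the count table, by 41 bases upstream for *Mcm6*, 60 bases upstream for *Mcm5* and 992 bases downstream for *Uhrf1*, so distances hold for RefSeq only.

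Library totals ran from 11885461 to 43571007 counts (median 19415320), so that a count of 3, taken as the floor, lies at or below 0.252 CPM (counts scaled to a common library size). *Smad4* mRNA went against the labels. It was 69.9 to 143 CPM in the 18 libraries labelled off and 14.8 to 22.4 CPM in the 17 labelled on, with log2 fold changes of -2.21 to -2.93, and every direction below is therefore that of the labels, labelled on against labelled off. Markers of tumor epithelium summed to 2550 CPM or more in every group. One liver library, labelled off on day 7, was labelled paired-end and stood apart: its profile correlated at 0.96 (median) with pancreas libraries and at 0.89 with the other liver libraries, and its 6 fibroblast markers summed to 35700 CPM against 321 CPM in the other library of its group. Its 6 acinar markers, genes of the exocrine pancreas, summed to 313 CPM against 4.88 CPM in that library and at most 16.9 CPM in the liver libraries labelled on of that day. By these values it was closer to pancreas libraries than to those of its labelled organ, whether its label holds was not tested, and every liver value labelled off on day 7 includes it unless said otherwise. In addition, 10 liver and lung libraries had counts on the mitochondrial gene *mt-Co3*, which the other 25 libraries, all pancreas libraries among them, lacked. The liver comparison of day 7 is given with and without the paired-end library, and the score within each kind of library.

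All 38 genes passed the filter on low counts in each of the 16 comparisons made. Their counts together made up 0.0923% to 0.208% of a library. Levels are given as CPM after TMM scaling. The MCM helicase genes and *Pcna*, the sliding clamp of DNA polymerases, had the highest medians over the 35 libraries: 154 CPM for *Mcm6*, 115 CPM for *Pcna*, 102 CPM for *Mcm2* and 93.1 CPM for *Mcm5*. At the other end were *Ccne2* (cyclin E2, 4.56 CPM), *Dscc1*, which helps load the clamp (3.52 CPM), and *Fen1*, the flap nuclease of Okazaki fragment maturation (1.16 CPM). Per kilobase of transcript, *Pcna* was at 47.9 CPM, *Mcm6* at 33.0 CPM, *Exo1* at 0.738 CPM and *Fen1* at 0.479 CPM. The highest library exceeded the lowest by 3.04-fold for the median gene, by 1.65-fold for *Slbp*, the histone stem-loop binding protein, by 5.57-fold for *Cdc45*, by 6.62-fold for *E2f8*, by 9.62-fold for *Rad51ap1*, a gene of homologous recombination, and by 18.7-fold for *Fen1*. The range plot of all 38 genes shows this spread.

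**Figure D1:**
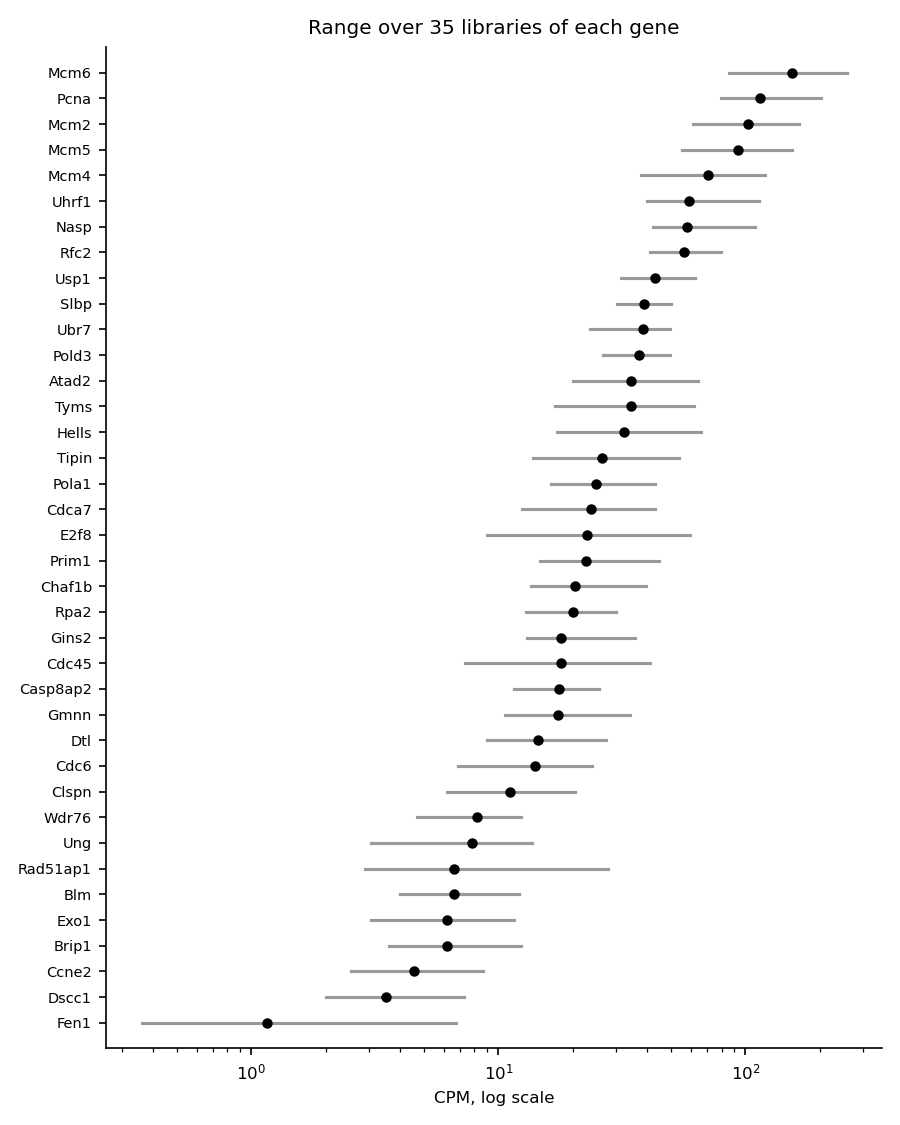
Level of each of the 38 genes over the 35 libraries, in CPM on a log axis: the dot is the median and the line runs from the lowest to the highest library. *Mcm6* lies highest (median 154 CPM) and *Fen1* lowest (1.16 CPM), with the widest range.

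The *Fen1* values need a limit beside them. In GENCODE vM21 on GRCm38, 84.2% of its exonic bases are also exonic in genes on the opposite strand, *Gm10143* and *Tmem258*. *Gins2*, a GINS subunit, shares 67.3% of its exonic bases with *Gse1*, and of the other members 7 share between 4.5% (*Dscc1*) and 17.4% (*Ccne2*). Whether counting used the strand is not given in the sources used here, and without strand reads of such pairs cannot be told apart. *Fen1* was at 2.15 to 6.74 CPM in the 10 libraries with *mt-Co3* counts and at 0.36 to 2.31 CPM in the other 25. Its correlation with the mean of the other 37 genes was 0.12, the lowest of all members.

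The other genes mostly varied together. Over the 35 libraries, in which all genes share a library's depth and scaling, the correlation (Pearson, log2 CPM) of a gene with the mean of the other 37 had a median of 0.70 and exceeded 0.5 for 32 of the 38 genes. It was highest for *Uhrf1* (0.90), which links newly copied DNA to its methylation, *Cdc6* (0.88), *Dtl* and *Dscc1* (0.86 each). Of all 703 gene pairs, 95% correlated positively, with a median of 0.49. *Ubr7* (0.24), *Pold3* (0.32) and *E2f8* (0.37) followed the others least, after *Fen1*.

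A score was formed as the mean over the 38 genes of log2(CPM + 0.5). In the pancreas on day 7 it was 4.89, 4.82 and 4.84 in the libraries labelled off and 4.25 and 4.42 in those labelled on, so the groups did not overlap and their means differed by -0.51. On day 14 the pancreas gave 4.58 and 4.38 labelled off and 4.44, 4.33 and 4.29 labelled on, which overlap. The 2 day 14 libraries labelled off thus lay below all 3 of day 7. Liver libraries of day 7 scored 5.06 and 4.43 (the paired-end library) labelled off and 4.47, 4.27 and 4.05 labelled on. On day 14 the liver libraries labelled off held both the second lowest score of the series, 4.17, and the highest, 5.18, with 4.75 for the one left, around 4.47, 4.58 and 4.38 in those labelled on. Lung libraries scored 4.40, 4.36, 4.36 and 4.82 labelled off against 4.45 and 4.49 labelled on for day 7, and 4.39, 4.69, 4.69 and 4.63 against 4.43, 4.32, 4.29 and 4.56 for day 14. The difference of means was -0.48 for liver and -0.02 for lungs on day 7. On day 14 it was -0.13 for pancreas, -0.22 for liver and -0.20 for lungs. Leaving out 1 library turned the liver value of day 14 to 0.02 (without labelled-off replicate 2, the library at 5.18) or to -0.49 (without replicate 1), and moved that of the pancreas to -0.03 (without labelled-off replicate 1) or -0.23 (without replicate 2). The lung value of day 7 ran from -0.12 to 0.1 over all alternatives, so its sign was not stable. The score is a description and was not tested.

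**Figure D2:**
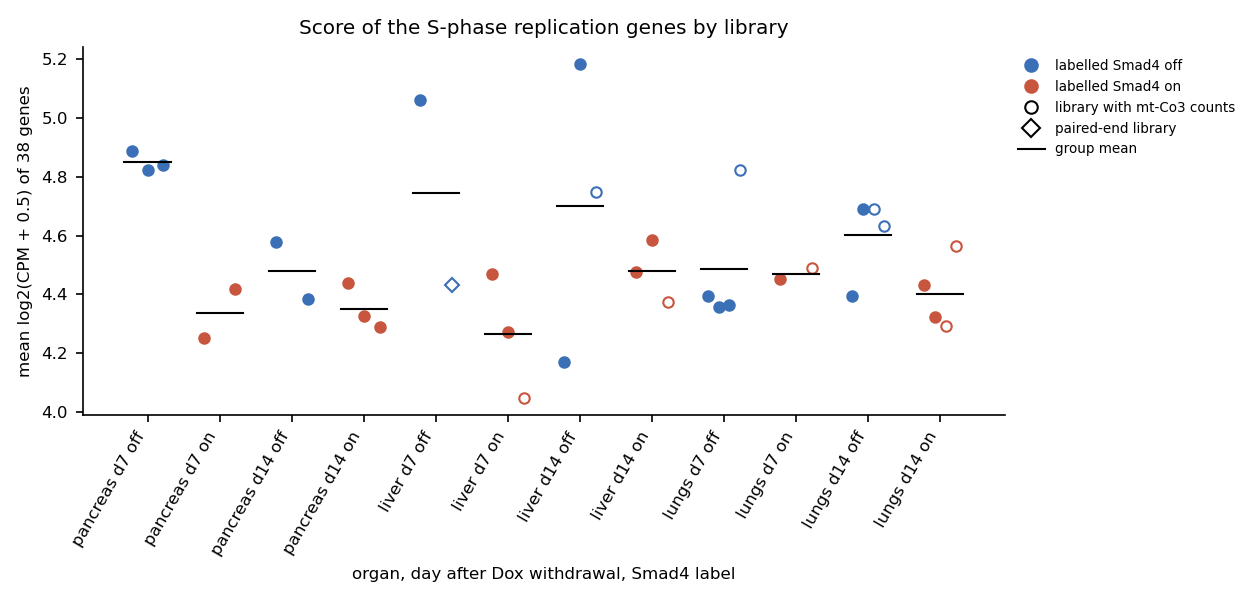
Score of the 38 genes, mean log2(CPM + 0.5), in each of the 35 libraries by organ, day and label, with group means as black lines. Open symbols are libraries with *mt-Co3* counts and the diamond is the paired-end library. Only in the pancreas on day 7 do the labelled groups lie apart.

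Within the libraries without *mt-Co3* counts, the score difference was -0.69 for liver and 0.08 for lungs on day 7 and became -0.15 and -0.17 by day 14. On day 7 these libraries held 1 labelled off for liver and 1 labelled on for lungs. Within those with *mt-Co3* counts it was -0.39, -0.33, -0.37 and -0.23, with 1 library a group except in the lungs on day 14, where there were 2. The lungs of day 7 were the only pair of groups whose difference changed sign between both kinds of library. Without the paired-end library, the liver difference of day 7 was -0.80, and without the other library labelled off it was -0.17.

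A member was called where its fold change exceeded 2 at an adjusted P under 0.05 (edgeR's quasi-likelihood test, Benjamini-Hochberg over all genes tested), and 0 members were called in each of the 6 comparisons of labels. The share of all genes tested that was called was 1.33% and 4.64% for pancreas on days 7 and 14, 0.444% and 0% for liver, and 0% and 0.0271% for lungs. DESeq2, run as another tool, called 0 and 1 members (pancreas), 2 and 1 (liver) and 0 and 0 (lungs), *E2f8* among them wherever there were any, beside 3.88% and 5.85%, 17.8% and 2.38%, and 0.719% and 1.42% of all genes with a DESeq2 adjusted P. As shares of the 38, none of these counts but that of the liver on day 14 exceeded its background, and that one is a single gene. At an unadjusted edgeR P under 0.05 stood 23 and 6 members (pancreas), 7 and 2 (liver) and 2 and 4 (lungs), where 23.1% and 28.6%, 27.1% and 9.68%, and 5.22% and 10.1% of all genes did. The pancreas of day 7 was thus the sole comparison far above that background. The fold change, called or not, was below 0 on the log2 scale for 37 and 25 of 38 members (pancreas), 37 and 33 (liver) and 24 and 34 (lungs), where the shares over all genes tested were 48.8%, 47.8%, 53.6%, 50.3%, 49.6% and 50.6%. In all 6 comparisons, which share no library, 17 of 38 members had the lower value labelled on, among them *Cdc45*, *Mcm4*, *Mcm5* and *Mcm6*, and 1099 of 13327 genes tested in all 6 (8.25%) did so. Some of these 17 turned above 0 in the liver on day 7 with the paired-end library as the sole library labelled off. They were *Hells* (0.11), *Gmnn* (0.4), *Prim1* (0.12) and *Chaf1b* (0.04).

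**Figure D3:**
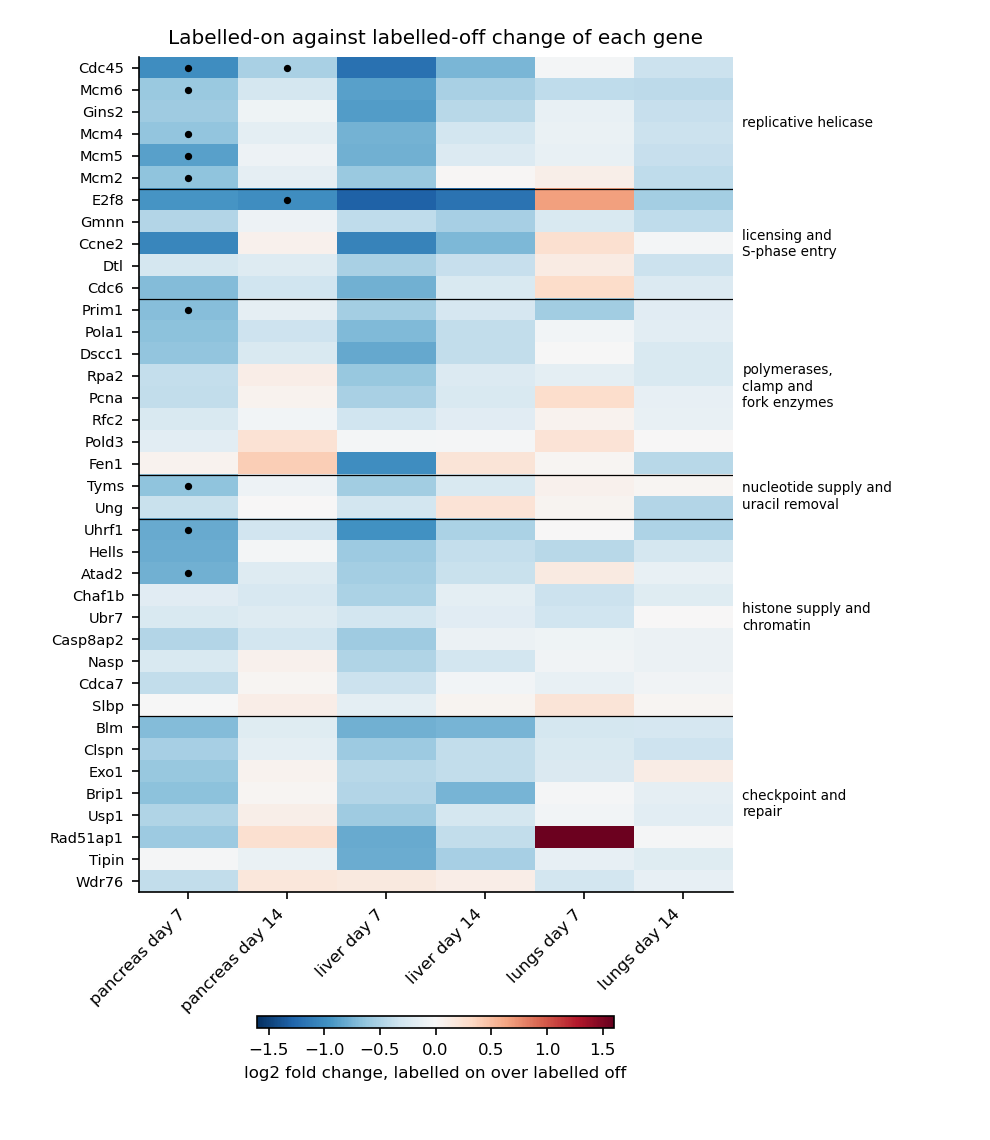
Log2 fold change, labelled on over labelled off, of the 38 genes (rows, by role) in the 6 organ and day comparisons (columns). Dots mark an adjusted P under 0.05 (edgeR). Blue, lower in the libraries labelled on, fills the columns of the pancreas and liver on day 7, where 37 of 38 genes each are below 0.

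The pancreas on day 7 had the most members lower at an adjusted P under 0.05. With no threshold on the fold, 9 of 38 members fell in the libraries labelled on and 0 rose, beside 2.24% of all genes tested. These 9 were 5 helicase genes (*Mcm2*, *Mcm4*, *Mcm5*, *Mcm6* and *Cdc45*), the primase subunit *Prim1*, thymidylate synthase *Tyms*, *Uhrf1* and the chromatin ATPase *Atad2*. The labelled groups did not overlap for 33 of 38 members, all lower labelled on, against 22.3% of all genes. The median log2 fold change over the 38 was -0.57 (range -1.05 to 0.05) and that over all genes 0.01. The count of 9 rests on few libraries: it was 7 without labelled-off replicate 1 (1.82% of all genes), 3 without labelled-off replicate 2 (1.25%), 0 without labelled-off replicate 3 (0.329%) or without either labelled-on library (0.153% and 0.414%), 0 in a single fit of all 12 groups (0.268%), and 15 by DESeq2 (10.9% of all genes). Other lists moved in the same libraries. All 5 tested markers of acinar cells were lower labelled on (summed level of 6 markers 1720 to 2740 CPM against 619 to 836 CPM, with 1 marker at 0 in both libraries labelled on), and of 6 fibroblast markers 5 were higher (11800 to 16800 CPM against 23000 to 24100 CPM, no marker at 0). Their part in the result was not tested.

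In the pancreas on day 14, 2 of 38 members fell at an adjusted P under 0.05 with no fold threshold, *E2f8* and *Cdc45*, and 0 rose, beside 12.9% of all genes tested, so the members' share was below the background. The groups did not overlap for 12 members that were lower labelled on (25.2% of all genes) and for 2 that were higher, *Pold3* and *Fen1* (21.9% of all genes). *E2f8* kept an adjusted P under 0.05 without each library in turn (4.01e-05 to 0.0431), whereas *Cdc45* did so only without labelled-on replicate 1 (0.00502 to 0.263 over the 5). In a single fit of all 12 groups neither passed (edgeR adjusted P = 0.358 and 0.604). DESeq2 gave 4 members (17.3% of all genes). Markers of tumor epithelium summed to 5490 to 7850 CPM labelled on against 4260 to 4670 CPM, and those of hepatocytes to 6.5 to 10.8 CPM against 1.66 to 2.37 CPM, and their part in the result was not tested. In the liver on day 7, 0 members were at an adjusted P under 0.05 without the fold threshold (background 0.444%), and DESeq2 gave 6 (23.6% of all genes). Labelled groups did not overlap for 13 members, all lower labelled on, against 18.8% of all genes. Without the paired-end library, which leaves 1 library labelled off, 38 of 38 members were below 0 (46.6% of all genes; median -0.95), 36 did not overlap (30.5%) and 0 passed an adjusted P of 0.05 (5.04% of all genes). With it as the sole library labelled off, 24 were below 0 (48.3%; median -0.14), 14 did not overlap and were lower (36.4%), and 1, *E2f8*, passed by edgeR, below the 22.2% of all genes that did. In both fits the lone library is assumed to vary like those labelled on. In the same comparison the libraries labelled on had 80.1 to 104 CPM of leukocyte markers against 25.4 to 27.8 CPM, 56.5 to 141 CPM of hepatocyte markers against 1.57 to 17.1 CPM, and 15100 to 16500 CPM of tumor epithelium markers against 3770 to 12100 CPM, and their part in the result was not tested.

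The liver on day 14 gave 0 of 38 members at an adjusted P under 0.05 (background 0%, DESeq2 1 beside 2.87% of all genes), with 3 members that did not overlap, all lower labelled on (*Blm*, *Cdc45* and *E2f8*; 6.52% of all genes). The lungs gave 0 of 38 on day 7 (background 0%, DESeq2 0 beside 0.776%) and 0 of 38 on day 14 (background 0.0271%, DESeq2 1 beside 2.77%). On day 7, 3 lung members did not overlap and were lower labelled on (6.67% of all genes), and 1, *Pold3*, was higher (5% of all genes). On day 14, 2 were lower, *Mcm6* and *Gmnn* (3.1% of all genes). The spread between libraries differed among these fits, with a common biological coefficient of variation from 0.142 in the pancreas on day 14 to 0.455 in the liver on day 7.

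Among the helicase genes, *Mcm2*, *Mcm4*, *Mcm5* and *Mcm6* encode subunits of the MCM ring, and *Cdc45* and *Gins2* the factors that activate it. In the pancreas *Mcm2* was 115, 121 and 124 CPM (labelled off) against 76.02 and 75.4 CPM (labelled on) at day 7, and 108 and 102 CPM against 91.9, 97.2 and 90.2 CPM at day 14. Liver libraries had *Mcm2* at 164 and 89.6 CPM (labelled off) against 105, 88.9 and 74.99 CPM (labelled on) at day 7, and 61.4, 143 and 132 CPM against 115, 132 and 97.9 CPM at day 14. Lung levels of *Mcm2* were 83.2, 86.8, 85.2 and 143 CPM (labelled off) against 121 and 90.9 CPM (labelled on) at day 7, and 104, 125, 134 and 142 CPM against 87.9, 101, 87.01 and 106 CPM at day 14. The libraries labelled on were below all those labelled off in the pancreas on both days, with log2 fold changes of -0.65 ± 0.09 (SE; edgeR adjusted P = 0.031) on day 7 and -0.15 ± 0.08 on day 14. In the liver the groups overlapped, and the fold change on day 14 was 0.02. The lungs of day 14 came to -0.41 ± 0.13, with 1 labelled-off library, replicate 1, inside the range of the other group.

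In the pancreas *Mcm5* was 128, 105 and 105 CPM (labelled off) against 61.6 and 60.6 CPM (labelled on) at day 7, and 96.1 and 84.3 CPM against 98.02, 75.4 and 77.6 CPM at day 14. Liver libraries had *Mcm5* at 142 and 103 CPM (labelled off) against 85.4, 70.7 and 72.3 CPM (labelled on) at day 7, and 55.2, 154 and 121 CPM against 85.7, 108 and 93.1 CPM at day 14. Lung levels of *Mcm5* were 67.4, 87.7, 77.9 and 149 CPM (labelled off) against 101 and 74.96 CPM (labelled on) at day 7, and 90.95, 122, 115 and 151 CPM against 102, 90.6, 77.2 and 102 CPM at day 14. The pancreas of day 7 showed a gap, from 61.6 CPM up to 105 CPM, between labels (log2 fold change -0.87 ± 0.13, edgeR adjusted P = 0.0331), whereas the groups overlapped on day 14 (-0.08 ± 0.12). The liver of day 7 had no overlap either (-0.77 ± 0.22, edgeR adjusted P = 0.104), and it was -1.01 without the paired-end library and -0.45 without the other library labelled off. *Mcm6*, on chromosome 1 (128331590 to 128359664), was the member with the most comparisons without overlap, 5 of 6. In single comparisons 3.1% to 25.2% of all genes were lower labelled on without overlap. The share of all genes with 5 such comparisons is not given here, so the count ranks members only. In the pancreas *Mcm6* was 189.9, 219.7 and 206 CPM (labelled off) against 131 and 138 CPM (labelled on) at day 7, and 187 and 181 CPM against 161, 149 and 139 CPM at day 14. Liver libraries had *Mcm6* at 238 and 139 CPM (labelled off) against 124, 118 and 85.7 CPM (labelled on) at day 7, and 167, 257 and 165 CPM against 120.5, 192 and 107 CPM at day 14. Lung levels of *Mcm6* were 154, 159, 142 and 182 CPM (labelled off) against 129 and 109 CPM (labelled on) at day 7, and 168, 190.1, 166 and 160.1 CPM against 146, 121, 110.2 and 137 CPM at day 14. Every library labelled on lay below every library labelled off, other than in the liver on day 14, where labelled-on replicate 2 exceeded 2 libraries labelled off. The edgeR adjusted P was 0.0478 for pancreas on day 7 (log2 fold change -0.60 ± 0.11) and 0.256 for lungs on day 14 (-0.42 ± 0.11).

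In the pancreas *Cdc45* was 31.6, 40.9 and 38.1 CPM (labelled off) against 17.4 and 19.3 CPM (labelled on) at day 7, and 25.4 and 22.6 CPM against 17.9, 14.6 and 16.8 CPM at day 14. Liver libraries had *Cdc45* at 36.5 and 15.6 CPM (labelled off) against 15.1, 13.5 and 7.34 CPM (labelled on) at day 7, and 22.5, 32.5 and 18.2 CPM against 14.3, 17.4 and 13.5 CPM at day 14. Lung levels of *Cdc45* were 14.9, 18.7, 16.4 and 23 CPM (labelled off) against 17.5 and 17.9 CPM (labelled on) at day 7, and 18.5, 23.9, 23.6 and 22.5 CPM against 16.8, 16.5, 14.7 and 22.3 CPM at day 14. *Cdc45* did not overlap between labels in 4 comparisons, a count whose share over all genes is not given here, and had the lowest median fold change after *E2f8*. The log2 fold changes were -1.0 ± 0.15 and -0.52 ± 0.13 for pancreas (edgeR adjusted P = 0.0331 and 0.0378), -1.20 ± 0.50 and -0.73 ± 0.26 for liver (0.20 and 0.441), and -0.03 ± 0.25 and -0.34 ± 0.16 for lungs (0.998 and 0.526). Without the paired-end library the liver value of *Cdc45* on day 7 was -1.70, and without the other library labelled off it was -0.40. For *Mcm6* these values were -1.23 and -0.37. *Mcm4* and *Gins2* were lower labelled on in all 6 comparisons, with log2 fold changes of -0.76 to -0.11 and -0.90 to -0.07. Of the 6 helicase genes, 5 passed an adjusted P of 0.05 in the pancreas on day 7 and 1 on day 14, beside 2.24% and 12.9% of all genes.

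The licensing and S-phase entry genes include *E2f8*, the member with the lowest median fold change over the 6 comparisons. *E2f8* (ENSMUSG00000046179, chromosome 7, 48866429 to 48881596, minus strand) encodes an atypical E2F that represses E2F targets and is itself an E2F target. In the pancreas *E2f8* was 34.5, 59.4 and 48.6 CPM (labelled off) against 24.1 and 24.5 CPM (labelled on) at day 7, and 32.5 and 32.01 CPM against 16.4, 14 and 17.3 CPM at day 14. Liver libraries had *E2f8* at 31.7 and 34.6 CPM (labelled off) against 17.2, 15.2 and 10.5 CPM (labelled on) at day 7, and 34.3, 33.4 and 19.6 CPM against 16.9, 8.97 and 13.7 CPM at day 14. Lung levels of *E2f8* were 21.4, 35.9, 18 and 21.2 CPM (labelled off) against 22.9 and 50.6 CPM (labelled on) at day 7, and 22.3, 23.8, 47.4 and 26.3 CPM against 13.2, 20.2, 29.3 and 19.6 CPM at day 14. In the pancreas and the liver, on both days, no library labelled on reached the lowest library labelled off, as was also so for *Cdc45*. The share of all genes with this pattern is not given here, so it describes single genes only. In the lungs the groups overlapped, and labelled-on replicate 2 of day 7, at 50.6 CPM, was above all 4 labelled off. The log2 fold changes were -0.95 ± 0.22 and -1.0 ± 0.12 for pancreas (edgeR adjusted P = 0.0807 and 0.00261), -1.29 ± 0.27 and -1.18 ± 0.32 for liver (0.0736 and 0.37) and 0.65 ± 0.40 and -0.55 ± 0.31 for lungs (0.998 and 0.626). On day 14 in the pancreas the fold itself lay just under the threshold of 2. The liver value of day 7 passed an adjusted P of 0.05 under 5 alternatives (DESeq2, no filter, a single fit of all groups, the *mt-Co3* covariate, and without labelled-off replicate 1), with adjusted P from 0.000395 to 0.256 over all alternatives. In these 5 fits, in the same order, 23.6%, 3.38%, 24.8%, 7.12% and 22.2% of all genes passed, and the last has the paired-end library as its sole library labelled off. Without the paired-end library it was -1.25 (edgeR adjusted P = 0.0944).

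*Cdc6* loads the helicase and *Ccne2* encodes a cyclin of CDK2. In the pancreas *Cdc6* was 19.5, 23.7 and 22.6 CPM (labelled off) against 14.03 and 12.7 CPM (labelled on) at day 7, and 16.2 and 14.9 CPM against 13.1, 12.2 and 11.3 CPM at day 14. Liver libraries had *Cdc6* at 22.9 and 11.4 CPM (labelled off) against 14.3, 10.7 and 6.88 CPM (labelled on) at day 7, and 7.68, 23.98 and 16.1 CPM against 12.4, 15.7 and 12.6 CPM at day 14. Lung levels of *Cdc6* were 11.4, 8.42, 13.4 and 19.5 CPM (labelled off) against 16.9 and 15.2 CPM (labelled on) at day 7, and 11.2, 16.5, 16.9 and 17.3 CPM against 12.9, 12.3, 12.3 and 15.9 CPM at day 14. Only the pancreas separated the labels, with log2 fold changes of -0.70 ± 0.15 and -0.32 ± 0.14 (edgeR adjusted P = 0.0628 and 0.17). In the pancreas *Ccne2* was 8.70, 5.03 and 6.04 CPM (labelled off) against 2.93 and 3.39 CPM (labelled on) at day 7, and 4.99 and 3.33 CPM against 4.56, 4.51 and 3.73 CPM at day 14. Liver libraries had *Ccne2* at 7.89 and 5.78 CPM (labelled off) against 4.04, 2.84 and 3.46 CPM (labelled on) at day 7, and 4.08, 7.25 and 7.16 CPM against 2.52, 3.91 and 4.94 CPM at day 14. Lung levels of *Ccne2* were 4.79, 3.01, 3.85 and 6.41 CPM (labelled off) against 2.94 and 7.67 CPM (labelled on) at day 7, and 3.92, 5.22, 6.78 and 4.44 CPM against 4.56, 3.76, 5.37 and 6.32 CPM at day 14. *Ccne2* fell short of the adjusted threshold despite log2 fold changes of -1.05 ± 0.32 in the pancreas and -1.07 ± 0.35 in the liver on day 7 (edgeR adjusted P = 0.12 and 0.133), at levels under 9 CPM. The liver value was -1.30 without the paired-end library and -0.77 without the other library labelled off. *Gmnn* (geminin), which blocks relicensing, was 15.99, 17.4, 20.8 and 18.7 CPM labelled off against 14.6, 10.6, 14.1 and 15.7 CPM labelled on in the lungs on day 14, with no overlap (-0.41 ± 0.16, edgeR adjusted P = 0.436). *Dtl*, which directs the destruction of CDT1 in S phase, ranged from -0.52 to 0.13 over the 6 comparisons.

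Of the polymerase and fork genes, *Pola1* and *Prim1* belong to the polymerase alpha-primase that starts each strand. In the pancreas *Pola1* was 38.6, 39.6 and 32.1 CPM (labelled off) against 21.1 and 25.2 CPM (labelled on) at day 7, and 25.4 and 22.99 CPM against 17.5, 22.8 and 16.3 CPM at day 14. Liver libraries had *Pola1* at 42.99 and 23.8 CPM (labelled off) against 24.9, 18.2 and 21.7 CPM (labelled on) at day 7, and 18.8, 41.3 and 30.7 CPM against 23.5, 27.9 and 18.7 CPM at day 14. Lung levels of *Pola1* were 26.2, 27.2, 24.1 and 30.3 CPM (labelled off) against 31.2 and 20.9 CPM (labelled on) at day 7, and 25.8, 35.8, 22.1 and 23.3 CPM against 26.6, 27.2, 17.7 and 23.8 CPM at day 14. The pancreas of day 7 came to -0.66 ± 0.15 on the log2 scale (edgeR adjusted P = 0.0708), with 32.1 CPM the lowest labelled off and 25.2 CPM the highest labelled on. In the pancreas *Pcna* was 118, 129 and 107 CPM (labelled off) against 80.01 and 96.8 CPM (labelled on) at day 7, and 100.5 and 100.3 CPM against 105, 103 and 99.2 CPM at day 14. Liver libraries had *Pcna* at 174 and 149.9 CPM (labelled off) against 117, 101 and 141 CPM (labelled on) at day 7, and 115, 176 and 186 CPM against 116, 136 and 160.1 CPM at day 14. Lung levels of *Pcna* were 88.2, 99.8, 95.4 and 202 CPM (labelled off) against 100.1 and 192 CPM (labelled on) at day 7, and 90.9, 100.2, 194 and 169 CPM against 95.4, 79.6, 151 and 183 CPM at day 14. *Pcna* split the lung libraries by *mt-Co3* more than by label. On day 14 the 4 lung libraries with *mt-Co3* counts were at 151 to 194 CPM and the 4 without at 79.6 to 100.2 CPM, and what sets these libraries apart was not tested. *Prim1* in the lungs on day 7 was 23.9, 22.3, 21.01 and 29.1 CPM labelled off against 17.7 and 14.7 CPM labelled on, below without overlap (-0.56 ± 0.22, edgeR adjusted P = 0.956), and in the pancreas 31.6, 29.1 and 28.1 CPM labelled off against 18.4 and 18.3 CPM labelled on (-0.68 ± 0.12, edgeR adjusted P = 0.0482). *Pold3*, a subunit of polymerase delta, was the sole member that separated the labels in opposite directions, at -0.17 in the pancreas on day 7 and at 0.23 and 0.22 in the pancreas on day 14 and the lungs on day 7. The other fork genes, *Rfc2*, *Dscc1* and *Rpa2*, ran from -0.82 to 0.10.

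*Tyms* makes thymidylate and *Ung* removes uracil from DNA. In the pancreas *Tyms* was 46.5, 55.9 and 55.9 CPM (labelled off) against 32.4 and 34.5 CPM (labelled on) at day 7, and 44.97 and 37.2 CPM against 41.6, 37.1 and 36.3 CPM at day 14. Liver libraries had *Tyms* at 61.9 and 28.5 CPM (labelled off) against 38.2, 38.3 and 20.8 CPM (labelled on) at day 7, and 25.1, 58.4 and 36.3 CPM against 33.1, 35.02 and 34.3 CPM at day 14. Lung levels of *Tyms* were 27.98, 28.1, 27.99 and 38.8 CPM (labelled off) against 34.1 and 29.99 CPM (labelled on) at day 7, and 26.1, 34.02, 26.7 and 26.5 CPM against 37.6, 28.2, 16.9 and 33.4 CPM at day 14. The pancreas of day 7 showed the sole separation (-0.64 ± 0.12, edgeR adjusted P = 0.0499), and 5 other comparisons ran from -0.56 to 0.07. The -0.56, of the liver on day 7, was -1.03 without the paired-end library and 0.16 without the other library labelled off. *Ung* ran from -0.47 to 0.22, at 3.06 to 13.7 CPM.

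In the histone and chromatin group, *Uhrf1* (ENSMUSG00000001228, chromosome 17, 56303321 to 56323486) had the lowest P of all members in the pancreas on day 7. In the pancreas *Uhrf1* was 93.2, 90.7 and 93.7 CPM (labelled off) against 50.2 and 54.1 CPM (labelled on) at day 7, and 73.5 and 65.8 CPM against 57.5, 53.8 and 55.1 CPM at day 14. Liver libraries had *Uhrf1* at 106 and 73.2 CPM (labelled off) against 58.2, 47.5 and 39.95 CPM (labelled on) at day 7, and 41.4, 113 and 90.2 CPM against 58.6, 59.1 and 56.99 CPM at day 14. Lung levels of *Uhrf1* were 51.4, 49.2, 54.2 and 112 CPM (labelled off) against 60.6 and 72.2 CPM (labelled on) at day 7, and 61.2, 76.2, 99.9 and 94.5 CPM against 45.2, 55.8, 56.1 and 78.4 CPM at day 14. Libraries labelled off lay between 90.7 and 93.7 CPM and those labelled on at 50.2 and 54.1 CPM there (-0.81 ± 0.09, edgeR adjusted P = 0.0181). Day 14 in the pancreas and day 7 in the liver also had no overlap, at -0.31 ± 0.08 and -0.97 ± 0.26 (edgeR adjusted P = 0.0522 and 0.0997). The liver value was -1.23 without the paired-end library and -0.61 without the other library labelled off. In the lungs of day 7, labelled-off replicate 4 was at 112 CPM and its 3 companions at 49.2 to 54.2 CPM. *Atad2* in the pancreas on day 7 was 56.4, 60.9 and 55.8 CPM labelled off against 33.8 and 33.1 CPM labelled on (-0.77 ± 0.10, edgeR adjusted P = 0.0239).

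In the pancreas *Nasp* was 77.5, 60.3 and 72.3 CPM (labelled off) against 49.8 and 68.02 CPM (labelled on) at day 7, and 63.2 and 52.5 CPM against 63.9, 59.8 and 55.8 CPM at day 14. Liver libraries had *Nasp* at 107 and 44.9 CPM (labelled off) against 72.1, 57.9 and 42.7 CPM (labelled on) at day 7, and 56.7, 109 and 59.03 CPM against 62.3, 83.5 and 42.2 CPM at day 14. Lung levels of *Nasp* were 56.6, 62.8, 53.6 and 68.9 CPM (labelled off) against 56.8 and 58.1 CPM (labelled on) at day 7, and 50.2, 63.2, 53.5 and 49.03 CPM against 57.1, 48.5, 42.8 and 54.8 CPM at day 14. For *Nasp*, a chaperone of histone H3 and H4, no comparison separated the labels and the log2 fold changes were -0.48 to 0.07. The -0.48, of the liver on day 7, was -0.99 without the paired-end library and 0.34 without the other library labelled off. *Slbp*, needed for histone mRNA, was the steadiest member in fold over libraries and had log2 fold changes of -0.16 to 0.20. *Hells*, a remodeler that aids DNA methylation, was lower labelled on in all 6 comparisons (-0.79 to -0.03), as were the assembly factor subunit *Chaf1b* (-0.51 to -0.16) and *Casp8ap2* (-0.57 to -0.07). With the paired-end library as the sole liver library labelled off on day 7, *Hells* turned to 0.11 and *Chaf1b* to 0.04, and *Casp8ap2* was -0.35. Without the paired-end library they were -1.03, -0.88 and -0.74. *Cdca7*, the partner of *Hells*, was lower in 5 and *Ubr7* in 6, in 1 of them by less than 0.01. In the liver on day 7 *Cdca7* was -0.35, and it turned to 0.29 with the paired-end library as the sole library labelled off.

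Of the 8 checkpoint and repair genes, 0 passed an adjusted P of 0.05 in any comparison of labels by edgeR. In the pancreas *Clspn* was 19.9, 14.3 and 20.3 CPM (labelled off) against 9.38 and 15.5 CPM (labelled on) at day 7, and 11.8 and 10.4 CPM against 11.8, 10.3 and 7.15 CPM at day 14. Liver libraries had *Clspn* at 15.8 and 10.9 CPM (labelled off) against 11.4, 10.6 and 6.30 CPM (labelled on) at day 7, and 6.18, 20.4 and 13.7 CPM against 14.2, 8.43 and 8.55 CPM at day 14. Lung levels of *Clspn* were 11.8, 8.87, 11.7 and 12.4 CPM (labelled off) against 7.48 and 11.1 CPM (labelled on) at day 7, and 11.1, 13.8, 14.6 and 10.9 CPM against 9.52, 9.93, 9.42 and 11.4 CPM at day 14. Claspin, which relays the checkpoint signal to CHK1, was lower labelled on in all 6 comparisons by fold change (-0.58 to -0.16), yet in none without overlap. In the pancreas *Exo1* was 9.23, 9.83 and 10.2 CPM (labelled off) against 5.92 and 6.79 CPM (labelled on) at day 7, and 6.35 and 4.83 CPM against 7.42, 4.29 and 5.44 CPM at day 14. Liver libraries had *Exo1* at 9.81 and 4.96 CPM (labelled off) against 7.35, 6.05 and 3.88 CPM (labelled on) at day 7, and 3.06, 11.6 and 8.10 CPM against 6.84, 6.10 and 4.55 CPM at day 14. Lung levels of *Exo1* were 6.01, 6.21, 5.06 and 9.98 CPM (labelled off) against 6.13 and 5.44 CPM (labelled on) at day 7, and 4.61, 6.49, 6.24 and 6.61 CPM against 6.13, 6.21, 5.72 and 8.17 CPM at day 14. The nuclease gene *Exo1* separated the labels in the pancreas on day 7 (-0.61 ± 0.18, edgeR adjusted P = 0.122) and in no other comparison.

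The helicase gene *Blm* was 9.66, 12.1 and 7.37 CPM labelled off against 7.05, 6.39 and 4.44 CPM labelled on in the liver on day 14, without overlap (-0.74 ± 0.32, edgeR adjusted P = 0.519), and was lower labelled on in all 6 comparisons. *Rad51ap1* in the lungs on day 7 was 6.43, 4.71, 5.24 and 6.61 CPM labelled off against 5.33 and 27.7 CPM labelled on. The log2 fold change of 1.57 ± 0.58 (edgeR adjusted P = 0.956) rested on labelled-on replicate 2, without which it was -0.14. That library also held the highest *E2f8* level of its organ on that day. *Tipin*, *Usp1*, *Brip1* and *Wdr76* ran from -0.80 to 0.18.

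**Figure D4:**
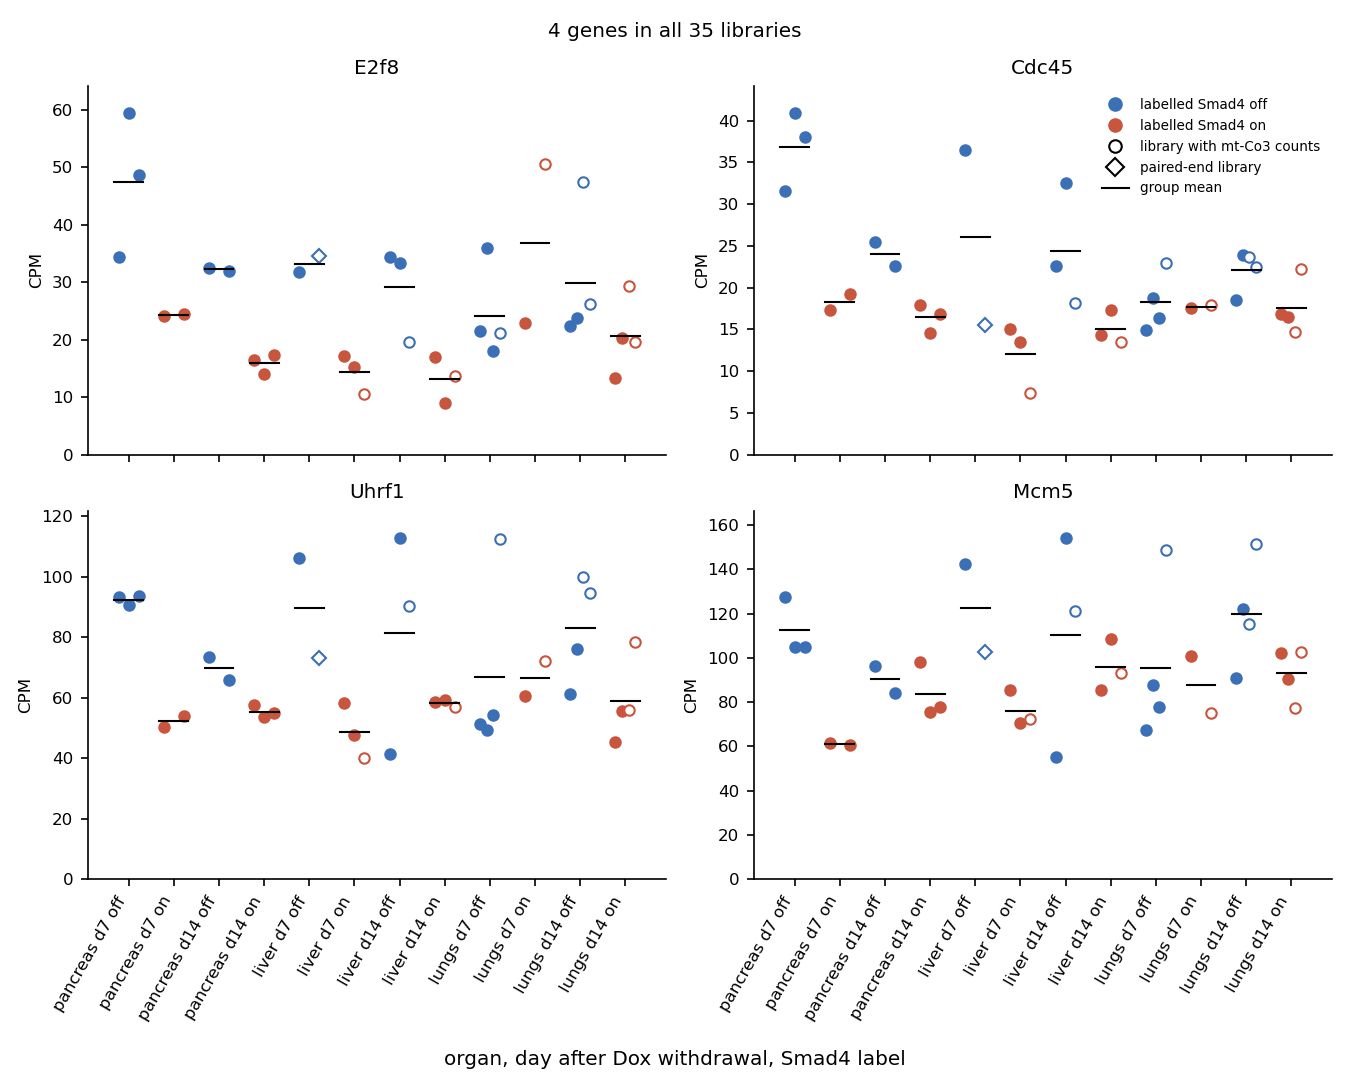
CPM of *E2f8*, *Cdc45*, *Uhrf1* and *Mcm5* in every library by organ, day and label, with group means as black lines and symbols as in the score plot. *E2f8* lies lower labelled on without overlap in the pancreas and liver on both days and overlaps in the lungs. The share of all genes with this pattern is not given here.

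Whether the response differed between liver and lungs, the organs whose tumors the study contrasted, was asked with an organ-by-label interaction term. No member passed on day 7, with or without the fold threshold (1.86% of all genes by either rule), or on day 14 (0% by either rule), by edgeR. DESeq2 called 1 member (*E2f8*) and 0, beside 11.6% and 0.0253% of all genes, and 2 and 0 members were at an unadjusted edgeR P under 0.05, beside 21.1% and 3.01%. *E2f8* came closest on day 7: its label difference was lower in the liver than in the lungs by -1.87 ± 0.52 on the log2 scale (edgeR adjusted P = 0.0808). Without lungs labelled-on replicate 1 it passed (-2.40, edgeR adjusted P = 0.0268), and without lungs labelled-on replicate 2 it was -1.14 (edgeR adjusted P = 0.283), within a range of 0.0133 to 0.383 for the adjusted P over all alternatives. Each of these 2 fits has 1 library in that arm, whose spread is taken from the other groups. Without the paired-end library *E2f8* was at -1.85 (edgeR adjusted P = 0.161). *Rad51ap1* followed at -2.34 ± 0.92 (edgeR adjusted P = 0.179). Over all alternatives its value ran from -3.12 to -0.65, and it passed an adjusted P of 0.05 in some of them. By sign, 35 of 38 members on day 7 and 26 on day 14 had the lower value in the liver, where 50.6% and 49.2% of all genes tested did. Without the paired-end library, 36 of 38 did on day 7 (45.4% of all genes) and 0 passed.

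Levels were also compared between organs at the same label. Comparisons of organs share the libraries of the organ they have in common. In libraries labelled off, the share of all genes that passed both thresholds was 8.68% for liver against pancreas, 18.4% for lungs against pancreas and 3.95% for liver against lungs, and in those labelled on 22.2%, 13.6% and 10.3%, and no member passed any of them by edgeR or DESeq2. With no fold threshold, 0 of 38 members passed for liver against pancreas labelled off (15% of all genes; 1 at an unadjusted P under 0.05, beside 31.2%), 5 for lungs against pancreas (34.4%) and 1 for liver against lungs (5.76%). Labelled on, the counts were 2 (40.6%), 3 (27.5%) and 3 (20.2%). *Ubr7* (-0.42 ± 0.09, edgeR adjusted P = 0.00183), *Tyms* (-0.73 ± 0.20, 0.00864), *Tipin* (-0.53 ± 0.15, 0.0133), *Cdc45* (-0.69 ± 0.22, 0.0218) and *E2f8* (-0.66 ± 0.24, 0.0424) were lower in lungs than in pancreas, labelled off. *Ubr7* and *Tyms* passed in all 22 alternatives, *Tipin* in 21 and *Cdc45* in 19, but *E2f8* in only 5 (edgeR adjusted P up to 0.13). *Tipin*, a fork protection factor, was higher in liver than in lungs labelled off (0.55 ± 0.15, edgeR adjusted P = 0.0436). This call was lost in 17 of 22 alternatives (edgeR adjusted P up to 0.148) and was at 0.64 without the paired-end library (0.0171). Markers of other cells moved with the organ in libraries labelled off. The pancreas held 11800 to 16800 CPM of fibroblast, 795 to 2770 CPM of acinar and 2550 to 4670 CPM of tumor epithelium markers, against 160 to 1980, 5.68 to 12.2 and 6110 to 14400 CPM in the lungs, where the acinar genes *Pnlip* and *Amy2a5* were at 0. Markers of lung epithelium summed to 64.2 to 408 CPM in the lungs and to at most 1.44 CPM in the other organs. The part of these cells in the organ differences was not tested.

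In libraries labelled on, *Hells* was higher and *Tipin* lower in the liver than in the pancreas (0.45 ± 0.15 and -0.48 ± 0.17, edgeR adjusted P = 0.0264 and 0.0393) and likewise for lungs (0.50 ± 0.15 and -0.56 ± 0.18, edgeR adjusted P = 0.0252 and 0.0256), where *Gmnn* was also lower (-0.35 ± 0.12, 0.0456). These calls were lost in 5 (*Hells*) and 6 (*Tipin*) of 20 alternatives for liver, and in 4, 5 and 12 (*Gmnn*) for lungs. *E2f8* was lower in liver than in lungs (-0.96 ± 0.24, edgeR adjusted P = 0.00967), and *Prim1* (0.39 ± 0.11, edgeR adjusted P = 0.0206) and *Gmnn* (0.35 ± 0.12, 0.0466) were higher there. *E2f8* passed in all 20 alternatives, *Prim1* in 17 and *Gmnn* in 4 (edgeR adjusted P up to 0.125). Labelled on, fibroblast markers summed to 8720 to 24100 CPM in the pancreas, 339 to 2990 CPM in the liver and 157 to 1590 CPM in the lungs, acinar markers to 619 to 1750, 5.89 to 16.9 and 2.94 to 13.2 CPM, and tumor epithelium markers to 3490 to 7850, 14300 to 16500 and 7800 to 11900 CPM. Between liver and lungs, endothelial markers were at 3.11 to 10.1 against 30.5 to 79.1 CPM and those of hepatocytes at 35.4 to 141 against 5.98 to 19.5 CPM. Their part was not tested either. Organ means of the score lay close together: 4.70 ± 0.22 (SD, n = 5), 4.72 ± 0.42 (n = 5) and 4.54 ± 0.19 (n = 8) in pancreas, liver and lungs labelled off, and 4.34 ± 0.08 (n = 5), 4.37 ± 0.19 (n = 6) and 4.43 ± 0.10 (n = 6) labelled on. The liver mean labelled off was 4.79 ± 0.45 (n = 4) without the paired-end library. Between days, no member differed at either label by either rule, as no gene did (0% labelled off and 0% labelled on); at an unadjusted edgeR P under 0.05 stood 0 members labelled off and 4 labelled on (7.46% and 7.51% of all genes), and DESeq2 called 0 and 0.

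Other genes of the cycle were read from fixed lists. Of 28 other replication genes, all 28 were lower labelled on by fold change in the pancreas on day 7 and 2 fell at an edgeR adjusted P under 0.05, against 18 and 1 on day 14. Over all genes 2.24% and 12.9% passed, and the count of day 14 was below that share. All 28 were lower in the liver on both days with 0 past the test, as were 18 and 27 in the lungs. The lowest P in each comparison belonged to *Dbf4*, the activator of the CDC7 kinase (-1.02 ± 0.15), *Chaf1a* (-0.72 ± 0.11), *Cdt1* (-0.73 ± 0.19), *Rrm2* (-1.16 ± 0.19), *Orc6* (-0.41 ± 0.15) and *Pola2* (-0.47 ± 0.11), in the pancreas, liver and lungs with day 7 before day 14. Of 20 mitosis genes, 20 were lower and 10 fell in the pancreas on day 7, the lowest P being that of *Cenpf* (-1.05 ± 0.13, edgeR adjusted P = 0.0189), and 15 were lower and 1, *Top2a*, fell on day 14, against the same 2.24% and 12.9% of all genes. The proliferation marker *Mki67* was at -0.99 ± 0.16 in the pancreas on day 7 (edgeR adjusted P = 0.0397) and at -0.66 to 0.01 in the 5 other comparisons. In the liver 20 of 20 mitosis genes were lower on each day, with 0 past the test (*Ccnb1* -1.15 ± 0.22 and *Bub1* -1.09 ± 0.26), and in the lungs 13 and 10 were (*Bub1b* -0.31 ± 0.17 and -0.11 ± 0.13).

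Of 20 E2F and cell cycle entry regulators, 1 fell in the pancreas on day 7, *E2f7* (-1.33 ± 0.20, edgeR adjusted P = 0.0333), the other atypical E2F, and 3 on day 14, and none rose on either day, where 2.24% and 12.9% of all genes passed, so the count of day 14 was near the background. *E2f1*, an activator of the S-phase genes, was at -0.25 ± 0.17 and -0.63 ± 0.09 for pancreas (edgeR adjusted P = 0.419 and 0.00524), -1.66 ± 0.31 and -0.75 ± 0.22 for liver (0.0649 and 0.375), and 0.12 ± 0.32 and -0.54 ± 0.23 for lungs (0.998 and 0.47). *Cdkn1c*, the CDK inhibitor p57, was at -2.04 ± 0.36 in the liver on day 7 (edgeR adjusted P = 0.0627) and at -1.41 to 0.36 in the 5 other comparisons. Both liver values of day 7 include the paired-end library, which was the higher of those labelled off. It held 9.33 CPM of *Cdkn1c* against 5.68 CPM in the other, and 1.85 to 2.04 CPM labelled on. For *E2f1* these levels were 41.8 CPM, 31.1 CPM and 8.80 to 15.4 CPM. In the lungs the lowest P of this list was that of *Ccnd2* (cyclin D2) on day 7 (2.12 ± 0.51, edgeR adjusted P = 0.731) and that of *E2f7* on day 14 (-0.70 ± 0.20, edgeR adjusted P = 0.278). *Ccnd2* was at 216.2 CPM in labelled-on replicate 1 and at 936.8 CPM in replicate 2, against 118.9 to 158.1 CPM labelled off.

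Over the 35 libraries, in which both sides of each pair share a library's depth and scaling, the score of the 38 genes correlated at 0.97 with the mean of the other replication genes (Spearman 0.93), at 0.82 with the mitosis genes (0.76) and at 0.63 with the E2F regulators (0.64). Marker lists of cell types gave -0.35 (leukocyte) to 0.03 (acinar). These are descriptions of libraries that differ by group and carry no test.

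**Figure D5:**
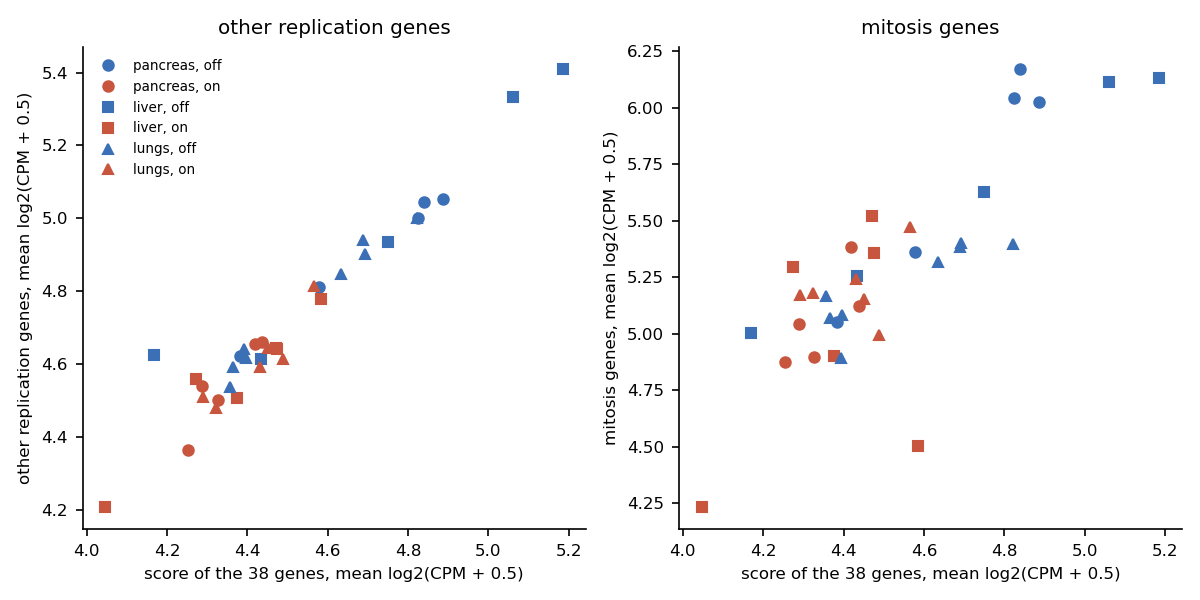
Score of the 38 genes (horizontal axis, mean log2(CPM + 0.5)) against the mean of 28 other replication genes (left) and 20 mitosis genes (right), 1 symbol a library, shaped by organ and coloured by label. The left panel follows a line (r = 0.97) and the right one scatters more (r = 0.82).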

How the data were processed

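RNA was taken from mKate2-positive cells sorted from the pancreas, liver or lungs of the hosts. The 35 libraries were sequenced as single-end 75-base reads, with 1 library labelled paired-end. Per the labels and methods, the authors trimmed reads (FastQC 0.11.5 and Trimmomatic 0.36 are in their processing notes), aligned them to GRCm38.91 with STAR 2.5.3a and deposited raw read counts per gene made with featureCounts 1.6.3. No count was normalized, every column was matched to 1 sample by its title, and 0 columns were left unused.

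Each comparison was fitted to the counts of its own groups with edgeR 4.0.16 in R 4.3.3 (filterByExpr with a minimum count of 10 and a minimum total of 15, TMM, robust quasi-likelihood test, Benjamini-Hochberg adjustment over all genes tested), and the liver and lung groups of a day together for the interaction. A member was called where the fold change exceeded 2 at an adjusted P under 0.05, and counts without the fold threshold are given beside it. The score used a pseudocount of 0.5 CPM. P-values measure the spread between numbered mice, which the labels describe no further, and a floor of 3 counts covers counting error only. The fitting was tested on simulated data. Tables and figures used Python 3.11.15, pandas 2.3.3 and matplotlib 3.10.9.

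Values in every library are given for 12 genes that stand for the roles and for the 3 members with the lowest P in each comparison of labels, and the rest as ranges and counts. The 38 genes and all lists were chosen with earlier results of these data known. Alternatives were DESeq2 1.42.0, its size factors, other filters, a single fit of 12 groups, an *mt-Co3* covariate, a replicate block and leaving out each library.

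Mouse numbers recur in the labels of both groups. The paper randomized mice to stay on Dox or come off it, so equal numbers were not taken to mean the same mouse. In the lungs on day 14, the deviations of same-numbered libraries from their group means correlated at 0.49, 0.55, 0.63 and 0.56. The replicate block changed no call there. Labelled-on replicates 1, 2 and 4 correlated best with labelled-off replicates 2, 1 and 3. Replicates 3 and 4 of both labels are the libraries with *mt-Co3* counts, so mouse number and kind of library were not separated. Strand of counting is not given in the sources used here. Not every allele of the tumor cells is reported here.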

Additional observations from a re-analysis of the deposited data

Results flagged for a closer look

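In the lungs on day 7, labelled-off replicate 4 lay far from the other 3 libraries of its group for the score and 9 genes. Its score was 4.82 against 4.36 to 4.40. *Mcm2* was 143 CPM against 83.2 to 86.8 CPM, *Pcna* 202 CPM against 88.2 to 99.8 CPM, *Uhrf1* 112 CPM against 49.2 to 54.2 CPM and *Hells* 51.3 CPM against 35.7 to 36.2 CPM. *Chaf1b* was 36.5 CPM against 19.7 to 20.4 CPM, *Tyms* 38.8 CPM against 28.0 to 28.1 CPM, *Dscc1* 6.21 CPM against 2.65 to 2.96 CPM and *Fen1* 6.74 CPM against 0.751 to 0.986 CPM. *Casp8ap2* was low there, at 15.8 CPM against 19.1 to 19.5 CPM. The library is the one of its group with *mt-Co3* counts (477), and their part in these values was not tested.

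In the lungs on day 14, single libraries labelled off stood apart for *Cdc6* (replicate 1, 11.2 CPM against 16.5 to 17.3 CPM), *E2f8* (replicate 3, 47.4 CPM against 22.3 to 26.3 CPM), *Tyms* (replicate 2, 34.0 CPM against 26.1 to 26.7 CPM) and *Tipin* (replicate 4, 20.5 CPM against 26.2 to 26.4 CPM). Among those labelled on, *Cdc6* was 15.9 CPM in replicate 4 against 12.3 to 12.9 CPM and *Atad2* was 28.4 CPM in replicate 3 against 34.3 to 35.4 CPM. Of 123 sets examined by Dixon's test for an outlier, 16 had such a library. The sets were groups of 4 lung libraries, for the score and each gene, and the score by organ and label over both days. Chance gives about 5% for independent sets, but the genes varied together and many of the 16 share labelled-off replicate 4 of day 7. They are thus not separate events, and the rate cannot be set against them.

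*Pold3* separated the labels in opposite directions, at 0.23 on the log2 scale for pancreas on day 14 and 0.22 for lungs on day 7 against -0.17 in the pancreas on day 7. These differences between comparisons were not tested.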

How the results depend on the processing

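Depth was not varied, and groups of 2 to 4 libraries limit every count. Causes of the changes below were not tested. Members passing both thresholds, 0 in every comparison, came to 2 (pancreas day 7) and 1 each (pancreas day 14, liver day 7) with no filter, and to 1 (pancreas day 14), 2 (liver day 7), 1 (liver day 14) and 1 (interaction, day 7) with DESeq2. They came to 1 with DESeq2 size factors and 1 with the replicate block in the pancreas on day 14, to 2 in a single fit of 12 groups (liver day 7, and the interaction of day 7) and to 3 with the *mt-Co3* covariate (liver day 7). The share of all genes in the same fits was 2.1%, 3.47% and 3.34% with no filter, 5.85%, 17.8%, 2.38% and 11.6% with DESeq2, 4.66% with its size factors, 3.69% with the block, 17.6% and 11.6% in the single fit and 6.38% with the covariate. As shares of 38, only 2 with no filter in the pancreas on day 7, 1 by DESeq2 in the liver on day 14 and 3 with the covariate lay above it. Without a fold threshold they were 9 and 2 in the pancreas on days 7 and 14, 5 and 1 for lungs against pancreas and liver against lungs labelled off, and 2, 3 and 3 labelled on. With both thresholds, leaving out 1 library moved the count from 0 in some fits. These were in the pancreas on both days, the liver and the interaction on day 7, and liver against lungs labelled on. An example was *Cdc45* in the pancreas on day 7 without labelled-off replicate 1 (-1.09, edgeR adjusted P = 0.0376), where 1.82% of all genes passed without the fold threshold. Several of these fits leave 1 library in a group and their shares of all genes are not given here, so no count is given. The 9 members of the pancreas on day 7 became 15 with DESeq2, 16 with no filter, 0 in the single fit, 0 with the replicate block and 0 to 7 without 1 library, and the 2 of day 14 became 4, 4, 0, 1 and 1 to 4. The shares of all genes were 10.9%, 5.84%, 0.268%, 0% and 0.153% to 1.82% on day 7, and 17.3%, 11.9%, 0.0912%, 7.36% and 2.76% to 22.9% on day 14, where each member count lay below the share of its own fit. These pancreas counts without a fold threshold were followed through the alternatives, and liver values over all members without the paired-end library were computed, after seeing the data, as were the shares of all genes in every alternative.

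The score difference of the pancreas on day 7 (-0.51) was -0.42 with a pseudocount of 5, -0.62 as a median of members and -0.60 to -0.43 without 1 library. That of day 14 (-0.13) was -0.32 as a median and -0.23 to -0.03 without 1 library, and that of the liver on day 14 (-0.22) was -0.49 to 0.02, so its sign turned without labelled-off replicate 2. In the liver on day 7 it was -0.80 without the paired-end library and -0.80 to -0.17 without 1 library. *Rad51ap1* in the lungs on day 7 turned from 1.57 to -0.14 without labelled-on replicate 2 and was 2.32 without labelled-on replicate 1. Both fits have 1 library labelled on. Outside the lungs of day 14, same-numbered libraries correlated at -0.33 to 0.48.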
